A study of Mus musculus with 4 samples.

Results

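The 10 genes described here encode receptors of FAS and TNF receptor death signalling and the proteins that act beneath them inside the cell. They are Fas, Tnfrsf10b, Tnfrsf1a, Tnfrsf1b, Tnfrsf11b, Tnfrsf12a, Fadd, Casp8, Cflar and Ripk1, chosen by gene symbol, and all 10 were found among the 22488 genes listed. Their transcripts were measured by RNA sequencing of vascular smooth muscle cells of C57BL/6 mice, which contract to set the width of an artery, grown to passage 4 to 10. In 2 libraries the siRNA was directed at circEsyt2, the circular transcript whose name comes from the gene Esyt2, and in the other 2 it was a scramble siRNA with no intended target, for 48 hours in both groups. The design holds no untransfected cells, so a value with circEsyt2 siRNA is read only against scramble siRNA. Whether replicates were grown as separate cultures is not given, and a p-value here reflects only how far these libraries scatter, which may be technical.

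Death receptors are membrane proteins whose cytoplasmic tail carries a death domain, a fold that recruits other death domain proteins once ligand binds. FAS, the receptor of Fas ligand, and TNFRSF10B, the mouse receptor of TRAIL, recruit the adaptor FADD and through it the protease caspase-8, which starts the caspase cascade, while CFLAR (c-FLIP) resembles caspase-8 but lacks its protease activity and restrains it. TNF receptor 1 instead assembles a complex with the kinase RIPK1 and ubiquitin ligases that feeds NF-kB and survival, and turns to death when that complex is disturbed. In the arterial wall these receptors have been studied in the loss of smooth muscle cells from plaques and in the growth response to injury.

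Fas was lower and Tnfrsf12a, the receptor of TWEAK, was higher with circEsyt2 siRNA, and none of the other 8 genes passed the test. Levels are in FPKM as deposited by the authors, that is, sequenced fragments scaled to the length of the gene and to the size of the library. A gene was called when its adjusted p was under 0.05 (limma on log2(FPKM + 1), Benjamini-Hochberg over the 11290 genes with a mean of at least 1 FPKM), and fold changes are on this scale, where a gene of low level shows less than its full change. All 10 genes passed that minimum. With 1 called lower and 1 called higher, 2 of 10 stood beside 12.7% called of all genes tested (7.26% lower and 5.47% higher). The 10 genes were chosen with earlier results of these data known, so this share was not a test. The median log2 fold change of the 10 was −0.09, beside 0.00 over all genes tested.

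**Figure D1:**
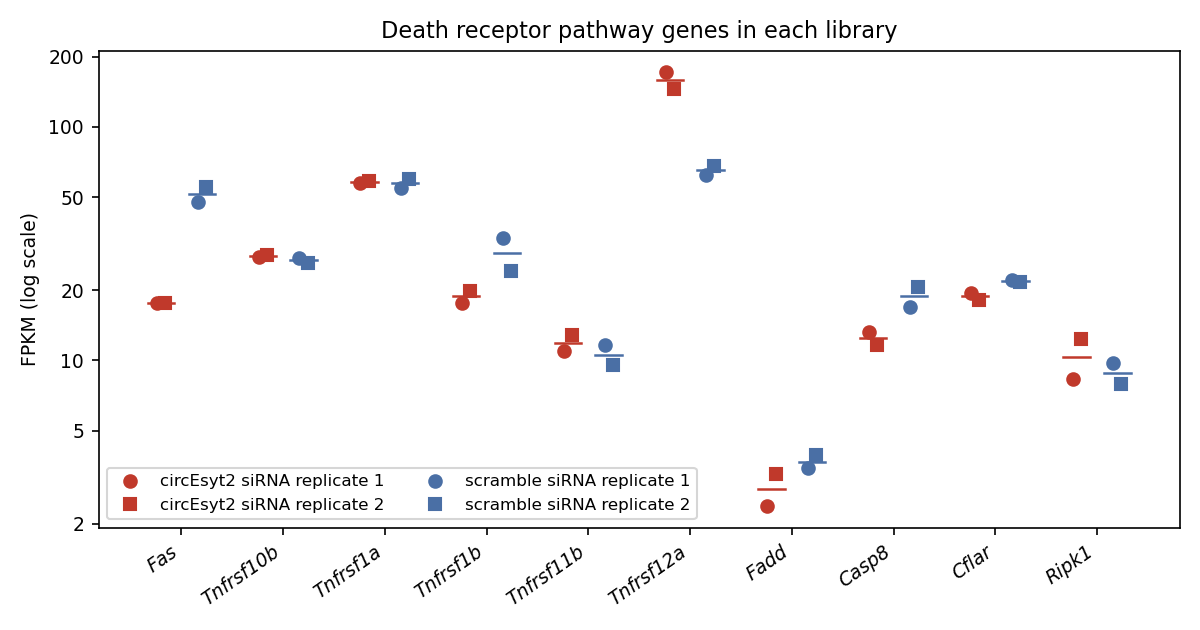
FPKM on a log axis for each of the 10 genes, with circEsyt2 siRNA libraries in red left of scramble siRNA libraries in blue, circles for replicate 1, squares for replicate 2 and short lines for the group means. Fas at 17.7 and 17.6 FPKM with circEsyt2 siRNA lies below 47.7 and 55.4 FPKM with scramble siRNA, and Tnfrsf12a at 171 and 145 FPKM lies above 62.5 and 68.3 FPKM.

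Depth was modest, at 3765056 and 3127224 gene-assigned fragments with circEsyt2 siRNA and 2516428 and 4116791 with scramble siRNA. All 5 smooth muscle markers (Acta2, Tagln, Myh11, Cnn1 and Smtn) were at 1 FPKM or more in every library. Their summed level was 915 and 867 FPKM with circEsyt2 siRNA and 1511 and 1531 FPKM with scramble siRNA. That sum is mostly Acta2 (883 and 829 FPKM with circEsyt2 siRNA, 1421 and 1446 FPKM with scramble siRNA). Acta2, Myh11, Cnn1 and Smtn were called lower, and Tagln was not called. Cnn1 measured 19.8 and 21.9 against 62.6 and 58.4 FPKM, and Myh11 1.15 and 2.78 against 8.58 and 7.77 FPKM. The library of circEsyt2 siRNA replicate 1 stood apart by its hepatocyte markers, 10 genes with Alb the highest, which summed to 3141 FPKM there and to 96.8 FPKM in circEsyt2 siRNA replicate 2, against 13.2 and 4.09 FPKM in scramble siRNA replicates 1 and 2. None of these 10 was at 0 in circEsyt2 siRNA replicate 1, while 1 (Apoh) was at 0 in replicate 2 and 4 were at 0 in each scramble siRNA library. Macrophage and leukocyte markers (7 genes) summed to 39.4 and 8.07 FPKM with circEsyt2 siRNA and 12.7 and 14.6 FPKM with scramble siRNA. In circEsyt2 siRNA replicate 1 that sum is mostly Lyz2 (21.4 FPKM, and 0.972 in replicate 2, against 1.21 and 0.923 FPKM with scramble siRNA). Csf1r went the other way (1.74 and 0.262 against 1.87 and 3.48 FPKM). Csf1r, Cd68, Cd14 and Lyz2 were not called, and the rest of that list was not tested. Endothelial markers (7) summed to 9.43 and 7.97 against 4.04 and 4.54 FPKM. Of these, Kdr was called higher (4.32 and 4.00 against 1.23 and 1.26 FPKM), Cdh5 was not called and the others were not tested. T cell markers (4) summed to 1.76 and 0.749 against 0.493 and 1.40 FPKM, and fibroblast markers (5) to 221 and 202 against 218 and 224 FPKM. The fibroblast sum is mostly Dcn (205 and 192 FPKM with circEsyt2 siRNA, 184 and 190 FPKM with scramble siRNA), and within that list Pdgfra was called lower (log2 fold change −1.34, limma adjusted p = 0.00535), while Dpt measured 2.46 and 1.11 against 6.45 and 4.79 FPKM and Lum 5.97 and 1.31 against 7.14 and 9.23 FPKM, neither called. The part of these differences in the results was not tested. Fold changes and calls of Fas and Tnfrsf12a are also given without circEsyt2 siRNA replicate 1. That leaves replicate 2, whose hepatocyte sum of 96.8 FPKM was also above both scramble siRNA libraries. Esyt2 measured 40.6 and 48.7 FPKM with circEsyt2 siRNA, against 53.4 and 50.6 FPKM with scramble siRNA (limma adjusted p = 0.318), which is a count over the host gene and does not measure the circular form.

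Fas encodes the membrane receptor that signals death on binding Fas ligand, and is a known target gene of p53. Its locus is on the plus strand of chromosome 19, from 34290666 to 34327772 (GRCm38, as are all positions given). It measured 17.7 and 17.6 FPKM with circEsyt2 siRNA, against 47.7 and 55.4 FPKM with scramble siRNA. Both circEsyt2 siRNA libraries were far under both scramble siRNA libraries, and the circEsyt2 siRNA libraries were nearly equal. The mean fell to 34.2% of the scramble mean, a log2 fold change of −1.49 (SE 0.13, 95% interval −1.81 to −1.17, limma adjusted p = 0.00427). Of all genes tested, 1.72% had a fold change at least as low. Relative to the scramble mean the log2 difference was −1.49 in replicate 1 and −1.50 in replicate 2. Without replicate 1, the library with the highest hepatocyte marker sum, the fold change was −1.50. Hepatocyte markers were also raised in the replicate 2 library that remained, so that fit is not free of them. The values rest on at least 120 and 99 fragments with circEsyt2 siRNA and at least 216 and 411 with scramble siRNA, minimum numbers because the gene length was solved from the values themselves. In bulk samples, fewer cells of a type and less RNA per cell cannot be told apart.

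Tnfrsf12a encodes Fn14, a small receptor with no death domain that binds TWEAK and is known for its induction by growth factors and injury. It lies on chromosome 17 at 23675445 to 23677468, minus strand. It measured 171 and 145 FPKM with circEsyt2 siRNA, against 62.5 and 68.3 FPKM with scramble siRNA. Both circEsyt2 siRNA libraries were above both scramble siRNA libraries, with circEsyt2 siRNA replicate 1 the highest of the 4. The mean rose to 2.42 times the scramble mean, a log2 fold change of 1.26 (SE 0.12, 95% interval 0.95 to 1.56, limma adjusted p = 0.00501). Of all genes tested, 3.01% had a fold change at least as high. Relative to the scramble mean the log2 difference was 1.37 in replicate 1 and 1.14 in replicate 2, and without the replicate 1 library the fold change was 1.14. These values rest on 1242 and 878 fragments with circEsyt2 siRNA and on 304 and 543 with scramble siRNA.

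With circEsyt2 siRNA replicate 1 left out, that group is 1 library with no spread of its own. The spread in limma then comes from the scramble siRNA pair, and the lone library is assumed to vary like it. The p-values of that fit are therefore weak evidence that the calls of Fas and Tnfrsf12a hold without replicate 1. They also rest on a filter applied to the 3 libraries that remained, and with the genes kept over all 4 libraries the adjusted p was 0.0587 for each, with 0 genes called in all and 2990 at an unadjusted p under 0.05. Both calls were also lost when either scramble siRNA library was left out, where the lone scramble siRNA library is likewise assumed to vary like the circEsyt2 siRNA pair. Without scramble siRNA replicate 1 the log2 fold changes were −1.60 for Fas and 1.19 for Tnfrsf12a (limma adjusted p = 0.170 each), and without scramble siRNA replicate 2 they were −1.38 and 1.32 (limma adjusted p = 0.110 each). In those fits limma called 0 of all genes tested, although an unadjusted p under 0.05 was reached by 1959 genes without replicate 1 and 2231 without replicate 2.

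The promoters of both called genes are printed because these genes moved in opposite directions. Each sequence is the 250 bases before the transcription start in RefSeq on GRCm38.p6, chr19:34290409-34290658 (plus strand) for Fas and chr17:23677450-23677699 (minus strand) for Tnfrsf12a, written 5′ to 3′ along the gene, with capitals where any of the 10 motifs searched matched.
Fas: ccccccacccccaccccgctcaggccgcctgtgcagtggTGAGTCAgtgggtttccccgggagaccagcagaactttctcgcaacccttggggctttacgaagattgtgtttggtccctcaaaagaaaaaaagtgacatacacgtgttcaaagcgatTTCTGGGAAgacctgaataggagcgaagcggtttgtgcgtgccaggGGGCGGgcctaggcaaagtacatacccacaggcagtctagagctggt
Tnfrsf12a: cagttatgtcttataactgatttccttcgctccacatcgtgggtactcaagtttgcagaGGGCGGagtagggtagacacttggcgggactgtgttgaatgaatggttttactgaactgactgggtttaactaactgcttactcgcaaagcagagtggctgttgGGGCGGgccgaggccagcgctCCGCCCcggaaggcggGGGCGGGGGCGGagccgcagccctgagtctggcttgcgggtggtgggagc

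The motifs searched on both strands were AP-1 (TGANTCA), a cAMP response half-site (TGACGT), the Sp1 GC box (GGGCGG), the TATA box (TATAAA), TEAD (GGAATG), and a STAT site (TTCNNNGAA), and, by name, IRF, NF-kB, a p53 half-site and the SRF CArG box. The Fas window held 1 AP-1 match, which 6.75% of 32851 promoter windows of this length held, 1 STAT match, which 7.02% held, and 1 GC box, which 32.7% held. In the Tnfrsf12a window there were 5 GC boxes and no other match, and the share of windows with 5 was not counted. The capitals in that sequence run together where 2 GC boxes abut, from −50 to −39 counted from the start. NF-kB, p53 half-site and CArG letters, present in 3.90%, 7.13% and 1.47% of windows, were in neither window, which says nothing of these factors elsewhere in the genes. RefSeq entries were found for 8 of the 10 genes, without Tnfrsf10b and Tnfrsf11b. Members that were not called held some of the same motifs. STAT matches were in windows of Tnfrsf1a, Tnfrsf1b and Ripk1, and GC boxes in windows of Tnfrsf1b, Fadd and Ripk1. The AP-1 match was in the Fas window only. A link between motifs and direction was not tested.

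Tnfrsf10b and Tnfrsf1a, the other members that encode receptors with a death domain, did not pass the test. Tnfrsf10b, which encodes the TRAIL receptor, lies on chromosome 14 at 69767472 to 69784411 and measured 27.8 and 28.4 FPKM with circEsyt2 siRNA, against 27.4 and 26.2 FPKM with scramble siRNA. The groups were separated by less than 1 FPKM at their nearest values, and the log2 fold change was 0.06 (SE 0.12, limma adjusted p = 0.747). Its 95% interval, −0.23 to 0.36, corresponds to a ratio of 0.85 to 1.28. Tnfrsf1a, which encodes TNF receptor 1, lies on chromosome 6 at 125349362 to 125362484 and measured 57.3 and 58.5 FPKM with circEsyt2 siRNA, inside the scramble siRNA values of 54.6 and 60.0 FPKM. The log2 fold change of Tnfrsf1a was 0.02, with a 95% interval of −0.26 to 0.29, a ratio of 0.84 to 1.22 (limma adjusted p = 0.938). A difference as large as that of Fas lies outside both intervals.

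**Figure D2:**
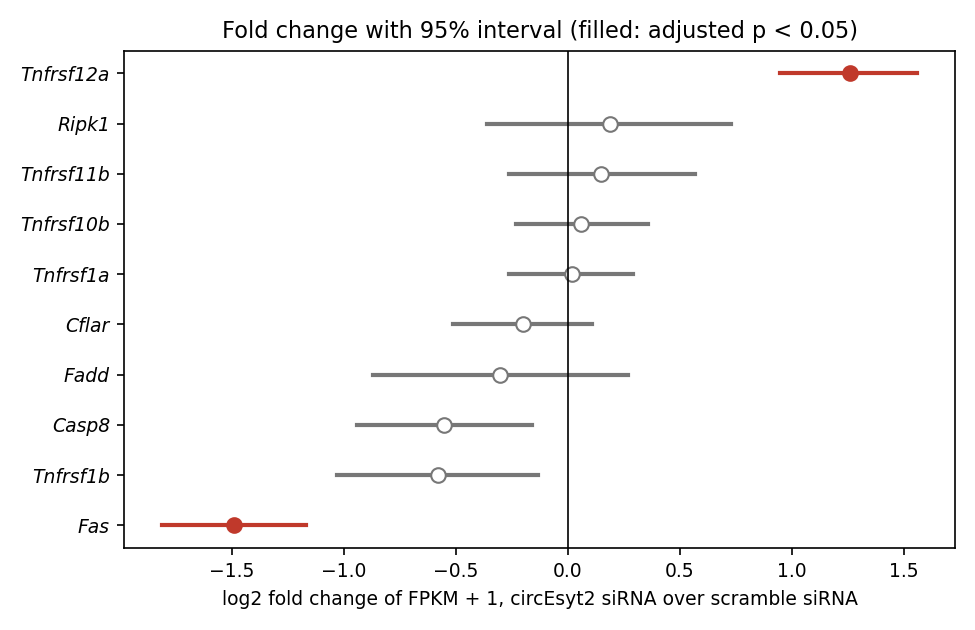
Log2 fold change of FPKM + 1, circEsyt2 siRNA over scramble siRNA, with its 95% interval from limma for each of the 10 genes, ordered from the highest at the top. Filled red points are called (Tnfrsf12a at 1.26 and Fas at −1.49), open grey points are not, and the intervals of Casp8 and Tnfrsf1b lie below 0 although their adjusted p missed the threshold.

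Tnfrsf1b encodes TNF receptor 2, which has no death domain and signals through TRAF proteins. It lies on chromosome 4 at 145213463 to 145246870. It measured 17.7 and 19.8 FPKM with circEsyt2 siRNA, against 33.3 and 24.2 FPKM with scramble siRNA. The groups did not overlap, but the scramble siRNA libraries differed from each other by more than the gap between the groups. The log2 fold change was −0.58 (SE 0.18, 95% interval −1.03 to −0.13) and was not called (limma adjusted p = 0.0957). It was −0.36 without scramble siRNA replicate 1 and −0.80 without scramble siRNA replicate 2.

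Tnfrsf11b encodes osteoprotegerin, a secreted decoy that binds RANKL and TRAIL and is made by vascular smooth muscle. It lies on chromosome 15 at 54250619 to 54278484. It measured 11.0 and 12.8 FPKM with circEsyt2 siRNA, against 11.7 and 9.57 FPKM with scramble siRNA. The groups overlapped, and the log2 fold change was 0.15 (95% interval −0.26 to 0.57, limma adjusted p = 0.577).

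Among the intracellular proteins, Casp8 had the smallest p. It encodes caspase-8, the protease that FADD brings to the receptor, and lies on chromosome 1 at 58795374 to 58847503. Casp8 measured 13.2 and 11.7 FPKM with circEsyt2 siRNA, against 17.0 and 20.6 FPKM with scramble siRNA. Both circEsyt2 siRNA libraries were below both scramble siRNA libraries. The log2 fold change was −0.55 (SE 0.16, 95% interval −0.94 to −0.16), at an unadjusted p of 0.0133 and a limma adjusted p of 0.0750, so it was not called. Over the alternative fits of Casp8 the adjusted p ranged from 0.0692 to 0.328 and the fold change from −0.68 to −0.42. Its neighbour on chromosome 1, Cflar at 58711508 to 58758884, encodes the caspase-8 homologue that restrains it. Cflar measured 19.5 and 18.2 FPKM with circEsyt2 siRNA, against 22.0 and 21.6 FPKM with scramble siRNA. These groups did not overlap either, by a gap smaller than for Casp8, and the log2 fold change was −0.20 (95% interval −0.51 to 0.11, limma adjusted p = 0.344).

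Fadd encodes the adaptor that joins the death domain of FAS to caspase-8, and was the least abundant of the 10 genes. It lies on chromosome 7 at 144577318 to 144582463. Fadd measured 2.38 and 3.28 FPKM with circEsyt2 siRNA, against 3.46 and 3.92 FPKM with scramble siRNA. The circEsyt2 siRNA replicate 2 library was close to the lower scramble siRNA library, and only 35 and 40 fragments with circEsyt2 siRNA and 34 and 63 with scramble siRNA stand behind these values. Exons of Fadd overlap those of Faddos on the other strand by 239 bases. The log2 fold change was −0.30 with a wide 95% interval of −0.87 to 0.27 (limma adjusted p = 0.429). Ripk1, on chromosome 13 at 34002363 to 34037147, encodes the death domain kinase of the TNF receptor 1 complex. Ripk1 measured 8.34 and 12.3 FPKM with circEsyt2 siRNA, against 9.72 and 7.92 FPKM with scramble siRNA. The groups overlapped and the circEsyt2 siRNA libraries were the lowest but 1 and the highest of the 4. Its log2 fold change was 0.19 (95% interval −0.36 to 0.73, limma adjusted p = 0.605) and was −0.07 without circEsyt2 siRNA replicate 2. The exons of Ripk1 overlap those of Gm17084 on the same strand and of Serpinb6a on the other, by 511 bases at the larger overlap, and with no strand setting given their fragments cannot be told apart.

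Groups did not overlap for 7 of the 10 genes, 5 lower (Fas, Tnfrsf1b, Fadd, Casp8 and Cflar) and 2 higher (Tnfrsf12a and Tnfrsf10b) with circEsyt2 siRNA. Of all genes tested, 60.7% did not overlap (31.1% lower and 29.7% higher), so this count is near the background.

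FPKM is per length, so levels of the 10 genes can be set side by side as far as the lengths hold. Lengths were those of all exons of a gene joined, not of the transcripts present, and that of Fas was solved from the values. The order and the size of a ratio between genes depend on these lengths, while a comparison of the groups does not. With circEsyt2 siRNA the order by mean was Tnfrsf12a, Tnfrsf1a, Tnfrsf10b, Cflar, Tnfrsf1b, Fas, Casp8, Tnfrsf11b, Ripk1 and Fadd. Neighbours whose library values overlapped there were Cflar with Tnfrsf1b, Tnfrsf1b with Fas, Casp8 with Tnfrsf11b, and Tnfrsf11b with Ripk1. With scramble siRNA it was Tnfrsf12a, Tnfrsf1a, Fas, Tnfrsf1b, Tnfrsf10b, Cflar, Casp8, Tnfrsf11b, Ripk1 and Fadd. Overlapping neighbours with scramble siRNA were Tnfrsf1a with Fas, Tnfrsf1b with Tnfrsf10b, and Tnfrsf11b with Ripk1. Fas thus stood in place 6 with circEsyt2 siRNA and in place 3 with scramble siRNA.

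**Figure D3:**
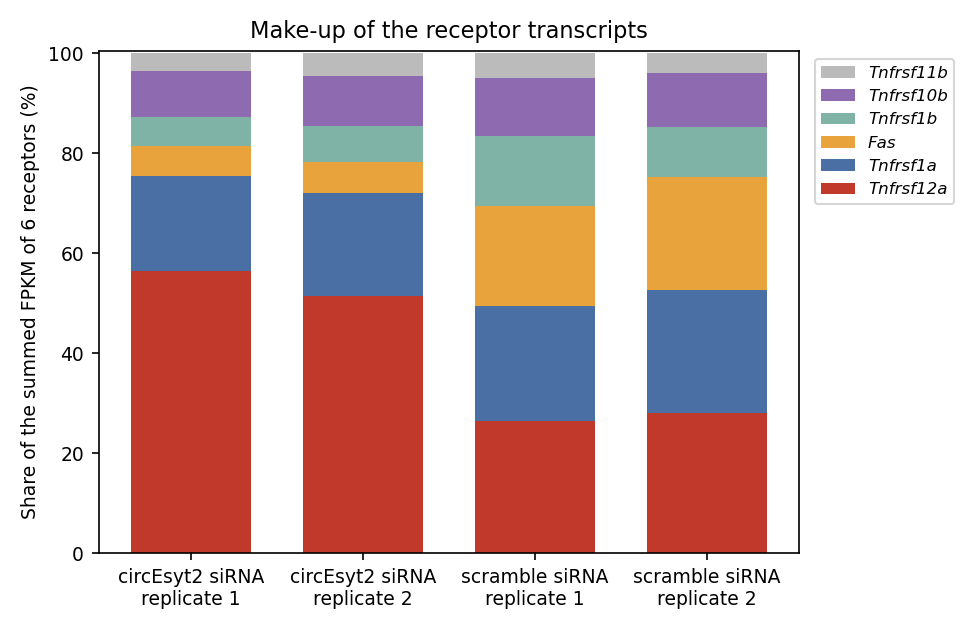
Share of the summed FPKM of the 6 receptor genes in percent, 1 bar per library, circEsyt2 siRNA left of scramble siRNA. Tnfrsf12a makes up 56.5% and 51.4% with circEsyt2 siRNA and 26.4% and 28.0% with scramble siRNA, and Fas makes up 5.86% and 6.22% against 20.1% and 22.7%.

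Of the summed FPKM of the 6 receptor genes, Fas held 5.86% and 6.22% with circEsyt2 siRNA, against 20.1% and 22.7% with scramble siRNA. Tnfrsf12a held 56.5% and 51.4% with circEsyt2 siRNA, against 26.4% and 28.0% with scramble siRNA. The sum itself was 302 and 282 FPKM with circEsyt2 siRNA and 237 and 244 FPKM with scramble siRNA. These shares restate the levels of the same libraries and were not tested.

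Within a library, the ratio of Fas to Tnfrsf10b, the pair of receptors that recruit FADD directly, was 0.637 and 0.619 with circEsyt2 siRNA, against 1.74 and 2.11 with scramble siRNA. By FPKM, Fas was the higher of the pair with scramble siRNA and the lower with circEsyt2 siRNA in each library. The ratio of Cflar to Casp8 was 1.48 and 1.55 with circEsyt2 siRNA, against 1.29 and 1.05 with scramble siRNA. The FPKM of the inhibitor exceeded that of the protease in all 4 libraries, most in the circEsyt2 siRNA libraries. This rests on lengths of 12669 bases for Cflar and 2893 bases for Casp8. The ratio of Tnfrsf1a to Tnfrsf1b was 3.24 and 2.95 with circEsyt2 siRNA, against 1.64 and 2.48 with scramble siRNA. All 3 ratios had groups that did not overlap, for which the two-sided exact permutation test over 2 against 2 libraries gives p = 0.333 (adjusted over the 3 also 0.333), the smallest this design allows.

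Beyond the 10 genes, 80 genes of the same signalling in 7 lists were read in the same fit. Of these, 61 were tested, 9 were called lower, 2 higher and 50 were not called, so 18.0% were called beside 12.7% of all genes tested. The lists were chosen with earlier results of these data known, so the shares describe the lists and were not tested. Their median log2 fold change was −0.08. The calls were spread over 6 of the lists.

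**Figure D4:**
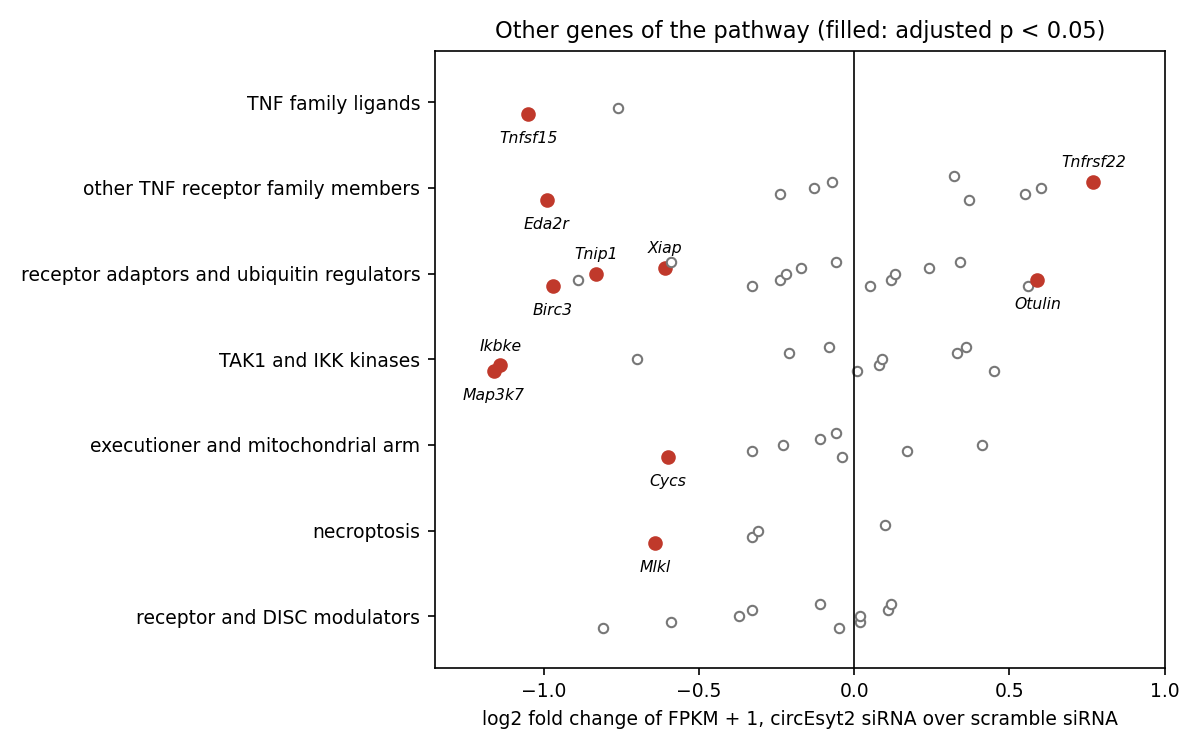
Log2 fold change of FPKM + 1, circEsyt2 siRNA over scramble siRNA, for the 61 tested genes of 7 pathway lists, 1 row per list with points shifted vertically for legibility. Filled red points with names are the 11 called genes, of which 9 lie left of 0 and 2 (Otulin and Tnfrsf22) right of it, and open grey points are the 50 not called.

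Most ligands of these receptors were low. Of 9 TNF family ligand genes, 7 were under the minimum of 1 FPKM on average and were not tested, Fasl, Tnfsf10 (TRAIL) and Tnf among them. Fasl measured 0.274 and 0.330 FPKM with circEsyt2 siRNA, against 0.410 and 0.125 FPKM with scramble siRNA. Tnf measured 1.94 and 0 FPKM with circEsyt2 siRNA, against 0.970 and 0.296 FPKM with scramble siRNA. Tnfsf12, the gene of the Tnfrsf12a ligand TWEAK, measured 2.63 and 2.53 FPKM with circEsyt2 siRNA, against 6.82 and 3.69 FPKM with scramble siRNA, and was not called (log2 fold change −0.76, limma adjusted p = 0.148); its exons overlap those of Tnfsfm13. Tnfsf15, which encodes the cytokine TL1A, was the most abundant ligand and fell to 9.92 and 8.89 FPKM with circEsyt2 siRNA, against 17.0 and 24.7 FPKM with scramble siRNA (log2 fold change −1.05, limma adjusted p = 0.0285). Its receptor gene Tnfrsf25 was below the minimum, at 0.467 and 0.562 FPKM with circEsyt2 siRNA and listed at 0 in both scramble siRNA libraries.

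Of 17 further receptors of the family, 9 were tested, 1 was lower and 1 higher. Eda2r, the receptor of ectodysplasin A2, measured 8.84 and 11.7 FPKM with circEsyt2 siRNA, against 21.2 and 21.4 FPKM with scramble siRNA, so both circEsyt2 siRNA libraries were lower (log2 fold change −0.99, limma adjusted p = 0.0204). Tnfrsf22, a mouse decoy receptor for TRAIL, measured 9.57 and 12.1 FPKM with circEsyt2 siRNA, against 5.47 and 6.39 FPKM with scramble siRNA (log2 fold change 0.77, limma adjusted p = 0.0490). Tnfrsf22 has close relatives, Tnfrsf23 and Tnfrsf26, with which fragments may be shared, so its value is uncertain.

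Adaptors and ubiquitin regulators, which build and edit the chains that hold RIPK1 in its survival complex, had 3 of 17 tested genes lower and 1 higher. Birc3, the gene of the ubiquitin ligase cIAP2, measured 5.09 and 4.53 FPKM with circEsyt2 siRNA, against 12.2 and 8.73 FPKM with scramble siRNA (log2 fold change −0.97, limma adjusted p = 0.0362). Xiap, an inhibitor of caspases, measured 10.2 FPKM in both circEsyt2 siRNA libraries, against 16.4 and 15.8 FPKM with scramble siRNA (log2 fold change −0.61, limma adjusted p = 0.0398). Tnip1, which works with the ubiquitin editor A20, measured 14.3 and 14.0 FPKM with circEsyt2 siRNA, against 29.1 and 23.1 FPKM with scramble siRNA (log2 fold change −0.83, limma adjusted p = 0.0256). All 3 were lower in both circEsyt2 siRNA libraries than in either scramble siRNA library. Otulin, the protease that removes linear ubiquitin chains, measured 20.7 and 21.2 FPKM with circEsyt2 siRNA, against 13.6 and 13.5 FPKM with scramble siRNA (log2 fold change 0.59, limma adjusted p = 0.0377), a call that voom on fragment numbers did not make (0.62, adjusted p = 0.0961).

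Of 11 tested kinases of the TAK1 and IKK step, which passes the receptor signal to NF-kB, 2 were lower. Map3k7, which encodes TAK1 itself, had the smallest p of all 61 pathway genes. It measured 13.4 and 12.4 FPKM with circEsyt2 siRNA, against 29.4 and 30.5 FPKM with scramble siRNA, and the groups were far apart relative to their spread (log2 fold change −1.16, SE 0.13, limma adjusted p = 0.00627). Ikbke, an IKK-related kinase gene known for its part in interferon and NF-kB signalling, measured 2.68 and 1.77 FPKM with circEsyt2 siRNA, against 6.92 and 5.25 FPKM with scramble siRNA (log2 fold change −1.14, limma adjusted p = 0.0380).

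Downstream of caspase-8, 1 of 8 tested genes of the executioner and mitochondrial arm was lower. Cycs, cytochrome c of the respiratory chain, which activates caspase-9 once released, measured 19.5 and 17.0 FPKM with circEsyt2 siRNA, against 26.9 and 29.3 FPKM with scramble siRNA (log2 fold change −0.60, limma adjusted p = 0.0439). Of the 4 necroptosis genes, which act when caspase-8 is blocked, 1 was lower. Mlkl, the effector that opens the membrane, measured 28.1 and 25.5 FPKM with circEsyt2 siRNA, against 40.0 and 44.8 FPKM with scramble siRNA (log2 fold change −0.64, limma adjusted p = 0.0306). Ripk3, the kinase that activates MLKL, measured 51.8 and 60.1 FPKM with circEsyt2 siRNA, against 76.6 and 65.0 FPKM with scramble siRNA, and was not called (log2 fold change −0.33, limma adjusted p = 0.173). In every library the Ripk3 level per length was above that of Ripk1.

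None of the 10 tested modulators of receptors and of the caspase-8 complex was called by limma (1, Tnfaip8, had an unadjusted p under 0.05), while voom, which called 13 of the pathway genes in all, called Tnfaip8 and Ptpn13. Tnfaip8, a TNF-induced survival gene, measured 1.03 and 1.05 FPKM with circEsyt2 siRNA, against 2.50 and 2.66 FPKM with scramble siRNA (log2 fold change −0.81, limma adjusted p = 0.119, and −1.31 with voom, adjusted p = 0.0172). Ptpn13, a phosphatase gene whose protein binds the tail of human FAS, measured 1.43 and 1.51 FPKM with circEsyt2 siRNA, against 2.66 and 2.77 FPKM with scramble siRNA (log2 fold change −0.59, limma adjusted p = 0.190, and −0.89 with voom, adjusted p = 0.0366).

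Of the 11 pathway calls, only Map3k7 was kept by limma without a variance trend, at an adjusted p of 0.0396, beside 0.0358 for Fas and 0.0422 for Tnfrsf12a. All 11 were lost without scramble siRNA replicate 1 or replicate 2. Without circEsyt2 siRNA replicate 1, the library with the highest hepatocyte marker sum, the calls of Map3k7, Eda2r and Ikbke were kept. With the genes kept over all 4 libraries these calls were lost too. The other 8 were lost, at adjusted p from 0.0505 for Mlkl to 0.0886 for Xiap. Without circEsyt2 siRNA replicate 2, 2 were kept (0.0459 for Map3k7 and 0.0466 for Eda2r).

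The genes most like Fas over the 4 libraries, by the Euclidean distance of log2(FPKM + 1) values centred on each gene's mean, were Pidd1 (distance 0.0475), Trabd2b (0.0613), Stc1 (0.0639), Srpx2 (0.103) and Cthrc1 (0.124). Pidd1, the closest, measured 0.939 and 0.989 FPKM with circEsyt2 siRNA, against 4.04 and 5.04 FPKM with scramble siRNA. At so low a level the added 1 shrinks the change of Pidd1. In FPKM alone it fell by a larger factor than Fas, so the closeness is partly set by that scale. For Tnfrsf12a they were Plpp2 (0.0624), Adi1 (0.0808), Mocs3 (0.124), Prkx (0.125) and Serinc2 (0.137), and Plpp2 measured 42.2 and 35.4 FPKM with circEsyt2 siRNA, against 15.6 and 17.0 FPKM with scramble siRNA. Likeness over 4 libraries in 2 groups is a description of size and spread only.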

How the data were processed

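Sample titles gave the groups and replicate numbers. The authors deposited FPKM per gene, 1 file per library. The submitters' processing notes list Trimmomatic, HISAT2 and featureCounts, and the builds GRCm38 and mm10, without versions or settings. Because FPKM is relative to the library total, very abundant transcripts lower the values of the rest. Library totals were recovered from the digits of the FPKM with the exon-union lengths of GENCODE M21, which gave whole fragment numbers (tolerance 0.0001) in all 4 libraries for 96.4% of the 20745 genes above 0. For the other 748 genes, Fas among them, the smallest length that did so was used, and their fragments are minimum numbers. Fragment numbers cover counting error only.

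limma 3.58.1 in R 4.3.3 was fitted to log2(FPKM + 1) with a variance trend and no covariate, two-sided. The other fits were pseudocount 0.1, no filter, no trend, median ratio scaling, quantile normalization, a replicate block, voom on the fragments, and each library left out. Voom changed several choices together, as it used fragments in place of FPKM, its own log scale, weights and no variance trend. A difference between voom and the main fit cannot be put to 1 of these. When a library was left out, the minimum of 1 FPKM was applied to the libraries that remained, and also, as first run, to all 4. The fit was tested on simulated data with 200 genes changed and a scatter set in advance. Of 95 tested genes changed by a log2 of 1 in either direction, 28 (29.5%) were called. Of 95 changed by a log2 of 2, 85 (89.5%) were called, and of 10905 unchanged genes, 5. These shares need not hold for the real libraries, but a gene that was not called is not shown to be unchanged. The members and lists were chosen with earlier results of these data known. All 10 members were named, with every called gene of the lists and the 2 of smallest p in each, and the 5 genes most like the called member of smallest p in each direction. 1 result that this rule names is not reported here. Fasl, Tnf and Tnfrsf25, the receptor shares, the motifs and the name of the ligand list were chosen after values were seen, as was the filter on the remaining libraries. Replicates were not copies of 1 library (chi-square per gene 10.4 for circEsyt2 siRNA and 3.90 for scramble siRNA, above counting noise).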

Additional observations from a re-analysis of the deposited data

How the results depend on the processing

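Over the 15 alternative fits the log2 fold changes were −1.60 to −1.38 for Fas and 1.14 to 1.37 for Tnfrsf12a. Groups did not overlap for either gene, so leaving out a library could not change the direction. Both gene filters gave the same fold changes, and all fits reused the same 4 libraries. The fits are thus not independent checks. The calls of both genes were kept in 10 of the 15 fits. They were lost under both gene filters without scramble siRNA replicate 1 (−1.60 and 1.19) or replicate 2 (−1.38 and 1.32), and without circEsyt2 siRNA replicate 1 when the gene filter of all 4 libraries was kept (−1.50 and 1.14, adjusted p = 0.0587 each, against 0.0128 and 0.0135 with the filter on the remaining libraries). None of the other 8 members was called in any fit. Tnfrsf1a changed sign without scramble siRNA replicate 1 (−0.05, leave-one-out range −0.05 to 0.08) and Ripk1 without circEsyt2 siRNA replicate 2 (−0.07, range −0.07 to 0.44), neither called. Leaving out 1 library gave 0 to 1027 called genes in all, beside 1437 (0 to 481 with the gene filter of all 4 libraries), and 0 to 2 called members and 0 to 3 called pathway genes, beside 2 and 11. limma without a trend called 577 genes in all and 1 pathway gene, and with no filter 5 pathway genes were called. The change in each member ratio, circEsyt2 siRNA mean over scramble siRNA mean, ranged, with 1 library left out, over 1.18 to 1.44 for Cflar to Casp8, 0.297 to 0.361 for Fas to Tnfrsf10b and 1.25 to 1.89 for Tnfrsf1a to Tnfrsf1b. Deviations of same-numbered replicates from their group means were not correlated (r = −0.0507 across genes). Scatter of single libraries can hide a shared preparation, so r does not decide whether the numbers pair samples, and the labels do not say. With the replicate block 1008 genes, both called members and 6 pathway genes were called. The cause of these differences was not tested. At this depth Fadd rests on 34 to 63 fragments per library. With 1 library left out, the lone library of its group was assumed to vary like the other group.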
